A study of Homo sapiens with 12 samples.

Results

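BH3-only genes encode the pro-apoptotic members of the BCL-2 family that carry a single BCL-2 homology motif, and 8 of them (BCL2L11, BBC3, PMAIP1, BMF, BIK, HRK, BAD and BID) were followed here among the 60591 genes of a deposited table of RNA-seq read counts. They were chosen by symbol, each symbol matched 1 row of the table, and all 8 passed the filter on low counts, as did 19108 genes in all. RNA was sequenced from PC9 and H1650, established non-small cell lung cancer lines that the study describes as carrying the same activating EGFR deletion and whose genotype is labelled wild-type. In each line, cells in 0.1% DMSO were harvested when the drugs were added (T0, 0 h), and other cells were collected after 36 h with 10 µM erlotinib or 0.1 µM osimertinib, inhibitors of the EGFR kinase. Each of the 6 groups had 2 replicates, which gives 12 libraries. No library with vehicle for 36 h was analysed here, so in every comparison with T0 the effect of a drug and that of time in culture cannot be told apart.

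BH3-only proteins act at the mitochondrial outer membrane. They bind the anti-apoptotic proteins BCL-2, BCL-XL, BCL-W and MCL-1 and displace what those hold, and some of them also activate the pore-forming effectors BAX and BAK directly. In cells that depend on EGFR, loss of ERK and AKT signalling is known to raise BIM (the product of BCL2L11), PUMA (BBC3) and BMF, partly through transcription and partly through the stability or localization of the proteins, and only the RNA was measured here.

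Libraries held between 17961765 and 26346187 reads counted on genes, and 3 reads, the most that a count of 0 allows, corresponded to 0.116 to 0.168 CPM (read counts scaled to library size with TMM factors). This limit covers counting error only. Epithelial markers were abundant in every library, with KRT8 between 2067 and 4280 CPM and EPCAM between 199 and 541 CPM. The lung adenocarcinoma marker NKX2-1 had at most 2 reads in any library and NAPSA at most 1.85 CPM. The leukocyte gene PTPRC had at most 5 reads and the fibroblast gene COL1A2 at most 3 reads, although COL1A1 lay between 9.96 and 44.8 CPM, and PECAM1 of endothelium stayed at or below 1.61 CPM.

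Transcripts of 4 BH3-only genes (BMF, HRK, BBC3 and BCL2L11) rose after both drugs in both lines, each with a larger rise in PC9. Changes over all tested genes were also larger in PC9, with a median absolute log2 fold change of 0.69 (erlotinib) and 0.71 (osimertinib). H1650 had 0.35 and 0.33. The share of all tested genes that rose in all 4 comparisons is not given here. In PC9, erlotinib raised 5 members (BCL2L11, BBC3, PMAIP1, BMF and HRK) and lowered 2 (BIK and BID), and BAD was not called. Across all tested genes 61.8% were called in that comparison, 32.7% higher and 29.1% lower (adjusted p under 0.05, quasi-likelihood test of edgeR, Benjamini-Hochberg adjustment). With osimertinib in PC9, the same 5 members rose, 1 (BID) fell, and BIK and BAD were not called, where 61.4% of all genes were called, 32.7% higher and 28.7% lower. The median log2 fold change of the 8 members was 1.17 with erlotinib and 1.08 with osimertinib, against 0.07 and 0.06 over all tested genes. In H1650, 4 members rose with erlotinib (BCL2L11, BBC3, BMF and HRK) and 0 fell, while 36.5% of all genes were called, 18.0% higher and 18.5% lower. With osimertinib, 5 rose (the same 4 and BID) and 0 fell, while 35.7% of all genes were called, 17.8% higher and 17.9% lower. The members' median was 0.39 and 0.53 in H1650, against 0.01 and 0.00 over all genes. With library totals as the only scaling, higher genes made up 66.5% of the calls with erlotinib in H1650 in place of 49.4%, and 59.8% in place of 49.8% with osimertinib, and the median of all genes with erlotinib rose by 0.13 on the log2 scale.

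**Figure D1:**
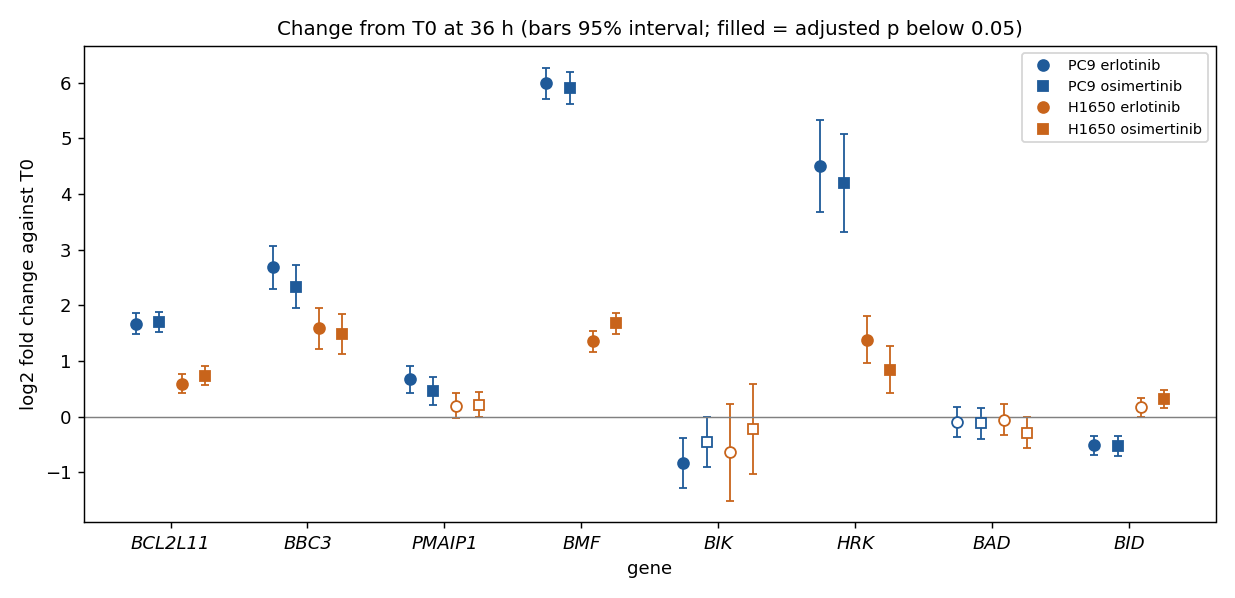
Log2 fold change against T0 (vertical axis) of the 8 BH3-only genes (horizontal axis) after erlotinib (circles) or osimertinib (squares) in PC9 (blue) and H1650 (orange), with 95% intervals from the fit of 12 libraries and filled symbols for adjusted p under 0.05. BMF and HRK have the largest changes in PC9, 5.99 and 4.50 with erlotinib, and BID lies below 0 in PC9 and above 0 in H1650.

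BMF, the sensitizer known to be held on the actin and myosin cytoskeleton through dynein light chain, had the largest change of the members in PC9 with both drugs and in H1650 with osimertinib, while BBC3 and HRK changed more in H1650 with erlotinib. At T0 it was measured at 1.76 and 1.09 CPM in the 2 PC9 libraries (35 and 22 reads). After erlotinib PC9 held 86.9 and 94.1 CPM, and after osimertinib 85.4 and 85.9 CPM. This was a log2 fold change of 5.99 (SE, the standard error of the log2 value, 0.139, adjusted p = 4.2e-23) with erlotinib and 5.91 (SE 0.140, adjusted p = 5.1e-23) with osimertinib. The 4 treated libraries stood far above both T0 libraries. By size of rise, BMF ranked 79 with erlotinib and 110 with osimertinib among 19108 genes. In H1650, BMF was already at 28.3 and 30.8 CPM at T0. It reached 72.6 and 78.6 CPM with erlotinib and 94.0 and 95.05 CPM with osimertinib, and the groups did not overlap. The log2 fold changes there were 1.35 (SE 0.0893, adjusted p = 2.0e-12) and 1.67 (SE 0.0889, adjusted p = 3.1e-14).

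HRK, the sensitizer also called Harakiri and best known from neurons, was close to the detection limit in PC9 at T0, with 8 reads in one library and 1 read in the other (0.403 and 0.0494 CPM). The treated PC9 libraries held 4.08 and 6.29 CPM with erlotinib and 3.61 and 4.93 CPM with osimertinib. In summed reads scaled to library size, the ratio to T0 was 23.4 with erlotinib (252 against 9 reads, exact 95% interval 12.1 to 51.8, counting error only). With osimertinib it was 18.7 (166 against 9 reads, interval 9.64 to 41.7). The fitted log2 fold changes were 4.50 (SE 0.406, adjusted p = 1.3e-10) and 4.20 (SE 0.427, adjusted p = 1.4e-09), values that depend on the few reads at T0. H1650 cells held 5.46 and 6.10 CPM of HRK at T0, within the range of the treated PC9 libraries. HRK rose there to 15.1 and 15.1 CPM with erlotinib (log2 fold change 1.38, SE 0.205, adjusted p = 4.1e-06) and to 11.6 and 9.31 CPM with osimertinib (0.85, SE 0.209, adjusted p = 0.00194). Treated and T0 libraries of H1650 did not overlap.

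**Figure D2:**
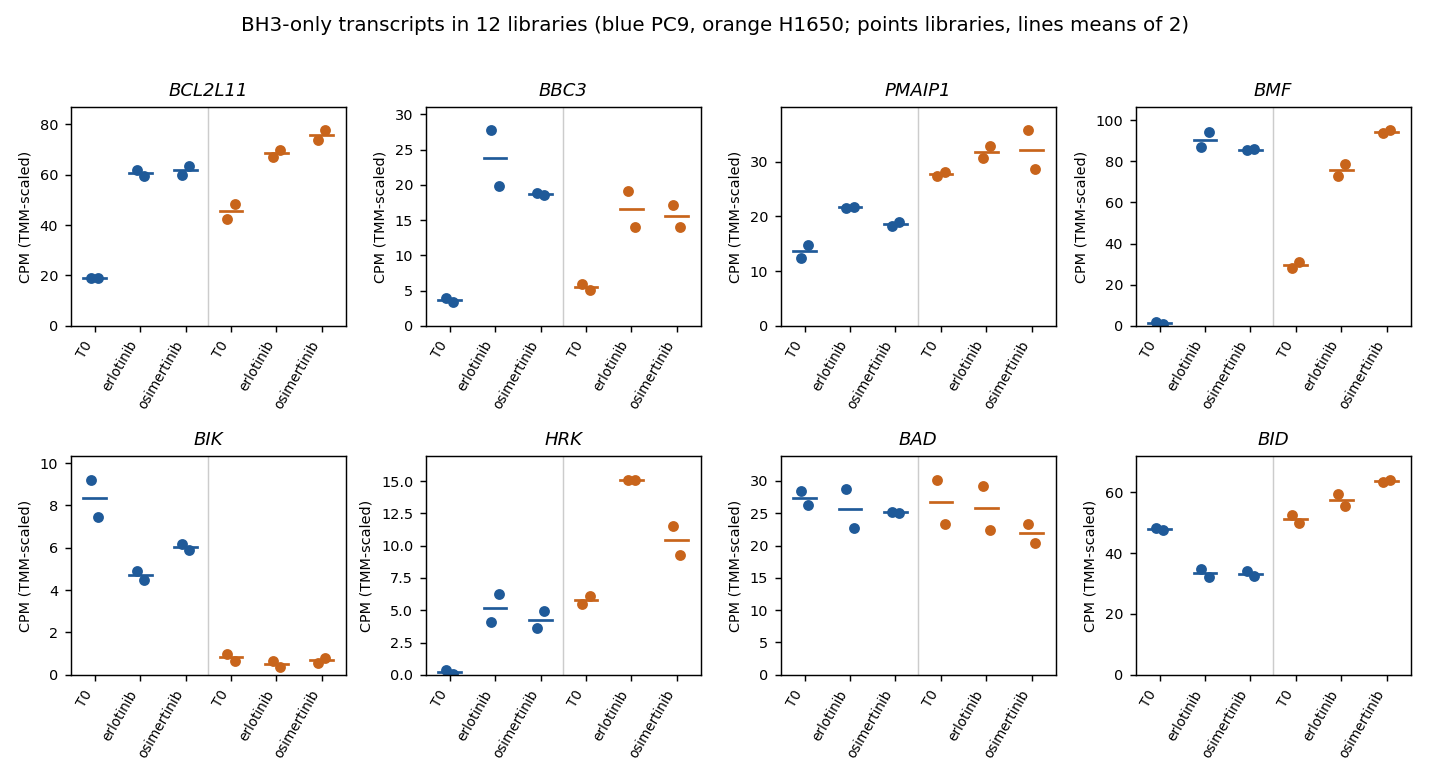
TMM-scaled CPM (vertical axes, linear and starting at 0, with a separate scale for each gene) of each BH3-only gene in the 12 libraries, with PC9 in blue and H1650 in orange. Points are libraries and lines are means of 2, and BMF goes from 1.09 to 1.76 CPM at T0 to over 85 CPM with either drug in PC9.

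BCL2L11 encodes BIM, an activator that binds every anti-apoptotic member of the family. PC9 libraries held 18.9 and 19.1 CPM at T0, 61.7 and 59.5 CPM with erlotinib, and 59.9 and 63.6 CPM with osimertinib. In H1650 the values were 42.6 and 48.3 CPM at T0, 67.1 and 69.9 CPM with erlotinib, and 73.8 and 77.5 CPM with osimertinib. The T0 level of H1650 thus lay between the untreated and the treated levels of PC9, and no T0 library overlapped a treated one. BCL2L11 rose 3.19-fold and 3.25-fold in PC9 and 1.51-fold and 1.66-fold in H1650 with erlotinib and osimertinib (adjusted p at most 1.9e-06 in the 4 comparisons). Exons of the noncoding gene MIR4435-2HG overlap 10.9% of the exon bases of BCL2L11 on the opposite strand, and MIR4435-2HG fell in all 4 comparisons, by between 1.21 and 2.29 on the log2 scale.

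BBC3 encodes PUMA, a broad binder known as a target of FOXO3. It rose from 3.98 and 3.41 CPM at T0 to 27.7 and 19.8 CPM with erlotinib in PC9, and to 18.9 and 18.5 CPM with osimertinib. These were log2 fold changes of 2.68 (SE 0.186, adjusted p = 5.8e-13) and 2.34 (SE 0.191, adjusted p = 1.7e-11). In H1650 it rose from 5.97 and 5.13 CPM to 19.2 and 14.1 CPM with erlotinib (1.58, SE 0.177, adjusted p = 4.3e-08) and to 17.1 and 13.99 CPM with osimertinib (1.49, SE 0.177, adjusted p = 1.3e-07). The 2 replicates of erlotinib were the furthest apart in both lines. All treated libraries lay above all T0 libraries of either line.

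PMAIP1 encodes NOXA, which binds MCL-1 selectively and promotes its degradation. PC9 held 12.4 and 14.8 CPM at T0, 21.5 and 21.7 CPM with erlotinib, and 18.3 and 19.0 CPM with osimertinib. The log2 fold changes were 0.67 (SE 0.120, adjusted p = 2.0e-05) and 0.46 (SE 0.123, adjusted p = 0.00208). Without replicate 1 of PC9 T0, the osimertinib value was 0.33 and was no longer called (adjusted p = 0.0644). In H1650, PMAIP1 was higher from the start, at 27.4 and 28.2 CPM, and the changes of 0.19 and 0.21 did not pass the test (95% intervals -0.03 to 0.42 and -0.01 to 0.44). With library totals as the only scaling, both passed, at 0.32 (adjusted p = 0.0208) and 0.28 (adjusted p = 0.0397), and without replicate 2 of H1650 osimertinib that value was 0.36 (adjusted p = 0.0319).

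BID links death receptors to mitochondria after cleavage by caspase-8, and it moved in opposite directions in the 2 lines. In PC9 it fell from 48.2 and 47.4 CPM to 34.7 and 32.2 CPM with erlotinib and to 33.9 and 32.5 CPM with osimertinib, without overlap. The log2 fold changes were -0.52 (SE 0.0850, adjusted p = 6.3e-06) and -0.53 (SE 0.0863, adjusted p = 5.8e-06). In H1650 it went from 52.6 and 49.7 CPM to 63.3 and 64.1 CPM with osimertinib, a rise of 0.32 (SE 0.0816, adjusted p = 0.00281). Without replicate 2 of H1650 T0 the rise was 0.28 (adjusted p = 0.0522). With erlotinib the libraries held 59.4 and 55.5 CPM, and the change of 0.17 was not called (95% interval -0.00054 to 0.34). It was called with library totals only, at 0.29 (adjusted p = 0.00561).

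BIK, a BH3-only protein of the endoplasmic reticulum membrane, was seen mainly in PC9. PC9 libraries held 9.23 and 7.45 CPM at T0, 4.93 and 4.49 CPM with erlotinib, and 6.20 and 5.89 CPM with osimertinib. The fall of 0.83 on the log2 scale with erlotinib was called (SE 0.219, adjusted p = 0.00185). The osimertinib value, -0.46 (SE 0.218), was not (adjusted p = 0.0680), although it was called without the filter on low counts (adjusted p = 0.0378), with one fit per line (adjusted p = 0.0142) and without replicate 1 of H1650 T0 (adjusted p = 0.0495). H1650 held between 0.372 and 0.979 CPM in its 6 libraries, 8 to 21 reads each. The changes there, -0.64 and -0.22, were not distinguishable from 0 at this depth (95% intervals -1.51 to 0.23 and -1.03 to 0.58).

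BAD, a sensitizer kept inactive by phosphorylation and 14-3-3 binding, was not called in any comparison against T0. It lay between 20.4 and 30.2 CPM in all 12 libraries. The largest of its 4 log2 fold changes against T0 was -0.29 with osimertinib in H1650 (95% interval -0.56 to -0.02, adjusted p = 0.0955), which was -0.47 and called (adjusted p = 0.0160) without replicate 2 of H1650 T0. Exons of GPR137 overlap 23.7% of the exon bases of BAD on the opposite strand. GPR137 held 46.6 to 66.7 CPM, and whether the reads were counted by strand is not given in the sources used here. In these bulk libraries, a change in every cell and a change in the share of cells that hold a transcript cannot be told apart.

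The lines were also compared within each condition. At T0, 5 members were higher in H1650 (BCL2L11, BBC3, PMAIP1, BMF and HRK), 1 was lower (BIK), and 2 were not called (BAD and BID), and 69.6% of all genes were called. BMF differed by 4.37 on the log2 scale (SE 0.151), HRK by 4.65 (SE 0.3998), BCL2L11 by 1.26 (SE 0.0917) and PMAIP1 by 1.03 (SE 0.118), with adjusted p at most 1.1e-08. The BBC3 difference of 0.58 (adjusted p = 0.0180) was lost without replicate 2 of PC9 T0 (0.47, adjusted p = 0.122) or replicate 1 of H1650 T0 (0.46, adjusted p = 0.105).

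Under erlotinib, 3 members were higher in H1650 (PMAIP1, HRK and BID) and 3 lower (BBC3, BMF and BIK), where 72.1% of all genes were called. The BMF difference was then -0.26 (SE 0.0838, adjusted p = 0.00751), with PC9 the higher line. It was lost without replicate 2 of PC9 erlotinib (-0.20, adjusted p = 0.0811) or replicate 1 of H1650 erlotinib (-0.20, adjusted p = 0.0916), and with library totals only (-0.17, adjusted p = 0.0677). BBC3 was lower in H1650 by 0.51 on the log2 scale (adjusted p = 0.00406), a call lost without replicate 1 of PC9 erlotinib (-0.26, adjusted p = 0.182) or replicate 2 of H1650 erlotinib (-0.31, adjusted p = 0.119). BCL2L11 was not called at 0.18 (adjusted p = 0.0526), and scaling by library totals alone gave a call, at 0.27 (adjusted p = 0.0042). Under osimertinib, 4 members were higher in H1650 (BCL2L11, PMAIP1, HRK and BID), 1 lower (BIK) and 3 not called, where 71.6% of all genes were called. BMF differed by 0.14 (95% interval -0.03 to 0.31) and BBC3 by -0.27 (95% interval -0.59 to 0.06). The BMF difference was called with library totals only, at 0.23 (adjusted p = 0.0147).

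HRK kept a difference of 1.54 under erlotinib and 1.30 under osimertinib (SEs 0.207 and 0.222), and BIK stayed lower in H1650, at -3.18 and -3.12, against -3.36 at T0. BID did not differ beyond its error at T0 (0.10, 95% interval -0.07 to 0.27) and was higher in H1650 by 0.78 under erlotinib and 0.94 under osimertinib (SEs 0.0843 and 0.0849).

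**Figure D3:**
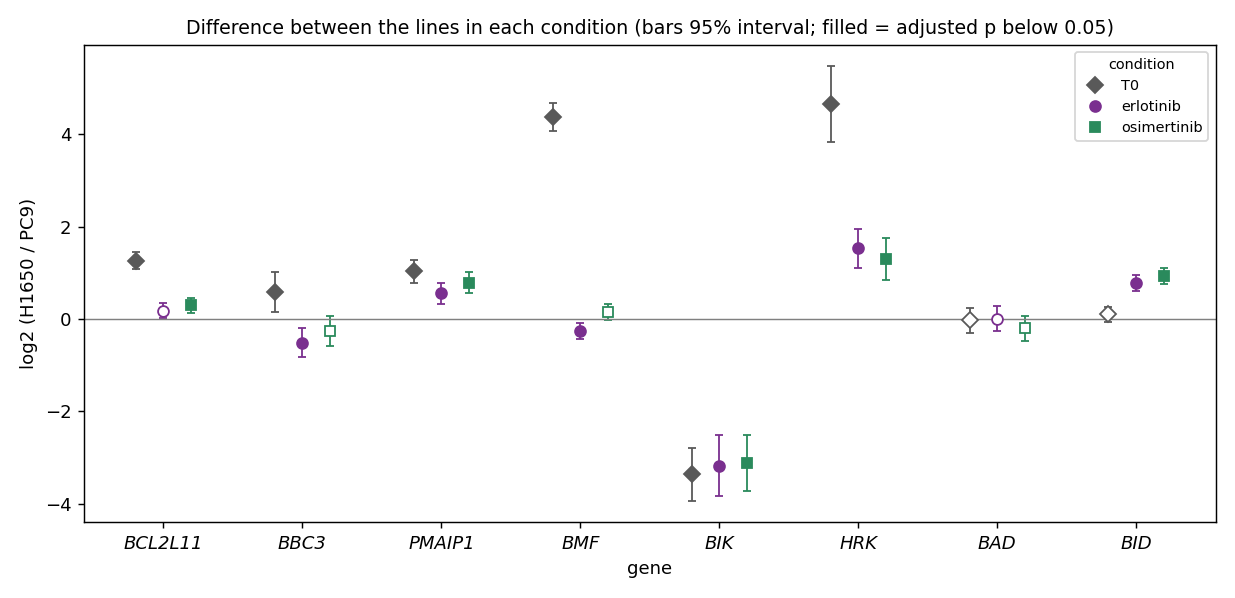
Log2 ratio of H1650 to PC9 (vertical axis) for each BH3-only gene (horizontal axis) at T0 (grey diamonds), under erlotinib (purple circles) and under osimertinib (green squares), with 95% intervals and filled symbols for adjusted p under 0.05. BMF drops from 4.37 at T0 to -0.26 and 0.14 under the drugs, and BIK stays near -3 throughout.

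The change with drug was compared between the lines directly, by taking the change of PC9 from that of H1650. With erlotinib, 6 members differed (40.8% of all genes were called), of which 5 changed less upward in H1650 and 1 (BID) more. For BMF the difference was -4.63 (SE 0.178, adjusted p = 6.4e-18), for HRK -3.12 (SE 0.508, adjusted p = 1.2e-05) and for BBC3 -1.10 (SE 0.264, adjusted p = 0.00125). With osimertinib, 5 members differed (41.9% of all genes were called), with BMF at -4.23 (SE 0.180), HRK at -3.36 (SE 0.513) and BID at 0.84 (SE 0.119). The BBC3 difference with osimertinib, -0.85 (adjusted p = 0.0112), was -0.74 without replicate 2 of PC9 T0 (adjusted p = 0.0605). The PMAIP1 difference with erlotinib, -0.48 (adjusted p = 0.0193), was lost with DESeq2 (adjusted p = 0.0553), without replicate 1 of PC9 T0 (-0.35, adjusted p = 0.144), without replicate 2 of H1650 T0 (-0.45, adjusted p = 0.0559) and without replicate 1 of H1650 erlotinib (-0.41, adjusted p = 0.0811).

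Few members were called between the 2 drugs, whose doses differed (10 µM erlotinib and 0.1 µM osimertinib), so these values compare 2 treatments and not the compounds at a matched dose. In PC9, edgeR called 0 of 8 members between the drugs, where 16.6% of all genes were called. BBC3 alone had an unadjusted p under 0.05, and DESeq2 also called 0. The 95% intervals of the PC9 differences ran from -0.14 to 0.20 for BCL2L11, from -0.25 to 0.09 for BMF and from -0.66 to -0.03 for BBC3, which was called without replicate 2 of PC9 erlotinib (-0.57, adjusted p = 0.0157). In H1650, 1 member was called, BMF, higher with osimertinib by 0.32 (SE 0.0840, adjusted p = 0.0133), where 8.75% of all genes were called. HRK was lower with osimertinib by 0.54 on the log2 scale and was not called (adjusted p = 0.0892), but it was called without the filter (adjusted p = 0.0393), with one fit per line (adjusted p = 0.0180) and without replicate 1 or replicate 2 of PC9 erlotinib (adjusted p = 0.0467 and 0.0489). The difference between the lines in this drug-to-drug value was called for 1 member, again BMF (0.40, SE 0.118, adjusted p = 0.0445), where 5.21% of all genes were called. The BMF call in H1650 was lost without replicate 1 of H1650 erlotinib (adjusted p = 0.160), replicate 1 of H1650 osimertinib (adjusted p = 0.0793) or replicate 2 of H1650 osimertinib (adjusted p = 0.0846). The line dependence was lost without any of these 3 (adjusted p = 0.188, 0.116 and 0.129), and also without replicate 2 of PC9 erlotinib (0.1497) and replicates 1 and 2 of PC9 osimertinib (0.130 and 0.101). With library totals only, higher genes made up 48.5% of the calls between the drugs in PC9 in place of 61.3%, and 39.2% in place of 57.4% in H1650.

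To compare the genes with each other, CPM were divided by the exon length in kilobases that the table gives for each gene. In PC9 at T0 the order was BAD (15.996 CPM per kilobase), BID (10.8), BIK (8.77), PMAIP1 (6.21), BCL2L11 (2.85), BBC3 (1.16), BMF (0.262) and HRK (0.0330), and no neighbours overlapped. With either drug BMF came first in PC9, at 16.6 CPM per kilobase with erlotinib, where it overlapped BAD (15.03), and at 15.7 with osimertinib, where it did not overlap BAD (14.7). In H1650 at T0 the order began with BAD (15.7), PMAIP1 (12.7) and BID (11.5), and BIK (0.860) and HRK (0.843) overlapped at the bottom. With erlotinib in H1650 the libraries of the first 4, BAD, PMAIP1, BMF and BID, overlapped from each to the next, and with osimertinib BMF was first (17.4) without overlap. The sum over the 8 genes was 46.0 ± 1.78 CPM per kilobase (SD, n = 2) in PC9 at T0. It was 71.3 ± 4.02 with erlotinib and 68.6 ± 0.212 with osimertinib. In H1650 it was 55.6 ± 2.46 at T0, 74.7 ± 3.07 with erlotinib and 77.7 ± 3.62 with osimertinib. BMF made up 0.565% of the sum in PC9 at T0 and 23.4% with erlotinib, and 9.78% and 18.6% in H1650. BIK went from 19.0% to 6.94% in PC9 and made up at most 1.80% in any H1650 library. Exon length counts every exon of a gene, so a shorter transcript in use would have a higher level per kilobase than given. Exons of GPR137 overlap 23.7% of the exon bases of BAD, and the strand setting of the counts is not given. The place of BAD in the order and its part of the sum carry that limit.

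**Figure D4:**
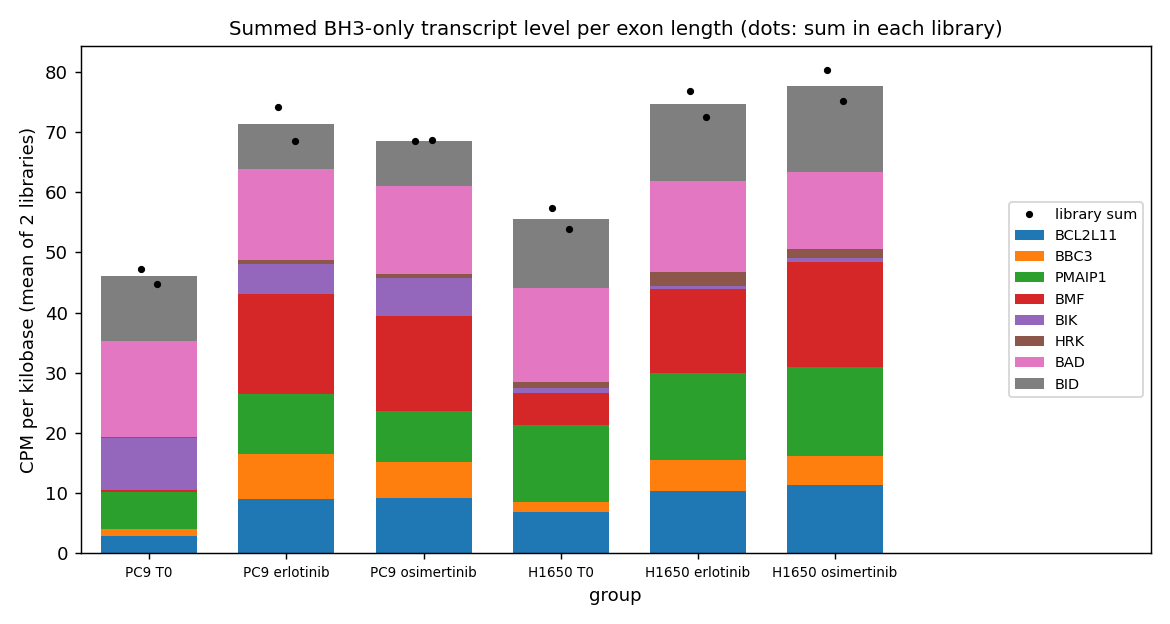
Stacked means of CPM per kilobase of exon (vertical axis, starting at 0) for the 8 BH3-only genes in each group (horizontal axis), with dots for the sum in each of the 2 libraries. BMF (red) is 0.565% of the stack in PC9 at T0 and 23.4% with erlotinib, and BIK (purple) is large in PC9 only, at 19.0% of the T0 stack.

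The members lie apart in the genome, apart from BIK and BID, which share chromosome 22. In GENCODE 29 on GRCh38, BMF (ENSG00000104081) lies on the minus strand of chromosome 15 from 40087890 to 40108892, HRK (ENSG00000135116) on the minus strand of chromosome 12 from 116856144 to 116881441, and BCL2L11 (ENSG00000153094) on chromosome 2, plus strand, between 111119378 and 111168447. BBC3 lies on the minus strand of chromosome 19 (47220822 to 47232766), PMAIP1 on the plus strand of chromosome 18 (59899948 to 59904306) and BAD on the minus strand of chromosome 11 (64269830 to 64284704). On chromosome 22, BIK (plus strand) spans 43110748 to 43129712 and BID (minus strand) 17734138 to 17774770. The antisense gene BMF-AS1, whose exons overlap 8.46% of the exon bases of BMF, had 0 reads in every library.

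The 250 bases before the RefSeq start (GRCh38.p14) are shown for the 3 members that rose in all 4 comparisons and have a window free of GENCODE exons, which for BMF is the downstream one of 2 starts. The windows are chr2:111120664-111120913 for BCL2L11 (plus strand, between exons of a longer transcript), chr15:40106967-40107216 for BMF (minus strand, within the gene) and chr12:116881442-116881691 for HRK (minus strand, before the gene). They are printed 5′ to 3′ on the strand of the gene, and capitals mark a match to 1 of the 4 motifs searched.
BCL2L11: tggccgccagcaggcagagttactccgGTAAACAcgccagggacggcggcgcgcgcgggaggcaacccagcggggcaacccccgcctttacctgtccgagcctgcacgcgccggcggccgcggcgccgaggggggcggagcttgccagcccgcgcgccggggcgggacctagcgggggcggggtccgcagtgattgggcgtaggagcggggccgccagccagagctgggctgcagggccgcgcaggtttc
BMF: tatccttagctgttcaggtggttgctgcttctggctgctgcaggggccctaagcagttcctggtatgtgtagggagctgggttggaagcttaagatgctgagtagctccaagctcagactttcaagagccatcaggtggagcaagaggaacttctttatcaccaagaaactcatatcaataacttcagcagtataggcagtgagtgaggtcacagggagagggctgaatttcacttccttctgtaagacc
HRK: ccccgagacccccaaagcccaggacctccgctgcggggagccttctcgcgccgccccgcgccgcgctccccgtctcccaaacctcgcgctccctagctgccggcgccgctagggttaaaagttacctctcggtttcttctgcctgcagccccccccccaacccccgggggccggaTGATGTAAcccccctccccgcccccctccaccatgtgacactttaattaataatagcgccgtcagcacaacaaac

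The motifs were chosen for factor families named in the list of upstream regulators, after part of these sequences had been seen, and were searched on both strands in these 250 bases for the 7 members that RefSeq windows matched. The forkhead motif GTAAACA was found in the BCL2L11 window, 223 bases before the start, and in 2.98% of all 35116 windows of that length. HRK held the C/EBP-ATF motif TGATGNAA 75 bases before its start (3.14% of all windows). The E-box CACGTG was found in the BBC3 window and, as the same site, in 2 overlapping windows of BID (6.34% of all windows). BID had 5 windows searched, and the shares given are per window and not per gene. The cyclic AMP motif TGACGTCA, present in 1.65% of all windows, was found in no window of a member. No motif matched another member's windows, and no 2 matches overlapped within a window. A match is a description of these letters and was not tested for use.

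Of the partners that BH3-only proteins bind (anti-apoptotic BCL2, BCL2L1, BCL2L2, MCL1 and BCL2A1, and effectors BAX, BAK1 and BOK), 7 of 8 were tested and BCL2A1 was below the filter. In PC9, 4 fell with each drug (BCL2, BCL2L1, BAX and BAK1) and 2 rose (BOK and BCL2L2 with erlotinib, BOK and MCL1 with osimertinib). In H1650, 1 fell with each drug (BOK) and 0 rose. BCL2 was not called there, at 12 and 14 reads at T0 and 4 and 7 reads with each drug, so a fall was not resolved. BOK, an effector-like protein that does not depend on BAX or BAK, was thus the only one called in all 4 comparisons, and its log2 fold change was 0.65 (erlotinib) and 0.88 (osimertinib) in PC9 but -0.48 and -0.38 in H1650. Over the partners the median was -0.63 and -0.60 in PC9 and -0.17 and -0.14 in H1650. Over all tested genes it was 0.07 and 0.06 in PC9 and 0.01 and 0.00 in H1650. Of all genes in PC9, 32.7% were called higher with each drug, and 29.1% and 28.7% lower. In H1650 these shares were 18.0% and 17.8% higher and 18.5% and 17.9% lower.

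Among 11 transcription factors known to act on BH3-only genes, 6 rose and 5 fell with erlotinib in PC9, and 6 rose and 4 fell with osimertinib. In H1650 the counts were 7 and 2 with erlotinib and 6 and 3 with osimertinib. The median log2 fold change was 0.58 and 0.19 in PC9 and 0.42 and 0.37 in H1650. Over all tested genes the median was 0.07 and 0.06 in PC9 and 0.01 and 0.00 in H1650. Of all genes, 61.8% and 61.4% were called in PC9 and 36.5% and 35.7% in H1650. FOXO4 rose in all 4 comparisons (2.41 and 2.58 in PC9, 1.38 and 1.62 in H1650, erlotinib first), as did FOXO3 (0.58, 0.81, 0.37 and 0.52). FOXO1 fell in PC9 (-0.45 with each drug) and rose in H1650 (0.60 and 0.70). TP63 also fell in PC9 (-3.86 and -4.10) and rose in H1650 (1.23 and 1.58), values that depend on few reads. It had 76 and 84 reads in PC9 at T0, 2 and 11 with erlotinib, and 4 and 5 with osimertinib. The H1650 libraries held 10 and 13 reads of TP63 at T0, 23 and 24 with erlotinib, and 31 and 33 with osimertinib. ATF3, a stress-induced factor, went the other way from FOXO1 and TP63, at 3.54 and 3.66 in PC9 and -0.63 and -0.49 in H1650. ATF4, the main factor of the integrated stress response, rose in all 4, at 1.38 and 0.18 in PC9 and 1.04 and 0.46 in H1650, and was lower with osimertinib than with erlotinib by 1.20 and 0.58 on the log2 scale. Between the drugs DDIT3, its target that encodes CHOP, was also lower with osimertinib in both lines, by 1.05 and 0.59 on the log2 scale. JUN was higher with osimertinib in both (0.76 and 0.65), and E2F1 was higher with osimertinib in PC9 (0.71) and lower in H1650 (-0.44). Against T0, E2F1 fell in PC9 with both drugs, from a mean of 87.8 CPM to 3.93 with erlotinib and 6.50 with osimertinib. In H1650 its means were 263.5 CPM at T0, 263.3 with erlotinib and 193.7 with osimertinib.

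Of 11 genes whose products hold, modify or cleave BH3-only proteins, 2 rose and 7 fell with erlotinib in PC9, and 1 rose and 7 fell with osimertinib. In H1650, 4 rose and 4 fell with each drug. Their median log2 fold change was -0.47 and -0.53 in PC9 and 0.11 with both drugs in H1650. As background, PC9 had 61.8% of all tested genes called with erlotinib (32.7% higher, 29.1% lower). With osimertinib PC9 had 61.4% called (32.7% higher, 28.7% lower). H1650 had 36.5% (18.0% higher, 18.5% lower) and 35.7% (17.8% higher, 17.9% lower). The all-gene medians were 0.07 and 0.06 for PC9, against 0.01 and 0.00 for H1650. DYNLL1, a dynein light chain known to hold BIM, fell in all 4 comparisons (-0.47 and -0.32 in PC9, -0.52 and -0.36 in H1650). AKT1, which phosphorylates BAD, fell by between 0.28 and 0.78 on the log2 scale, and the 14-3-3 genes YWHAZ and YWHAE by between 0.34 and 0.83. PIM1, another kinase of BAD, rose in all 4 (0.55, 0.41, 0.42 and 0.39). CASP8, the protease that cleaves BID, fell in PC9 (-0.27 and -0.21) and rose in H1650 (0.31 and 0.33).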

How the data were processed

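RNA-seq of PC9 and H1650 cells (T0, erlotinib or osimertinib, 2 replicates per group, which the study calls biological) was analysed from the processed table. The authors extracted RNA, had it sequenced, processed reads with the DolphinNext pipeline, and deposited the number of reads (counts) per gene and library without normalization, with an exon length per gene. The submitters' processing notes list GRCh38 and DESeq2. The aligner, the annotation and the strand setting are not given in the sources used here. For 69.9% of the 55049 symbols found once in GENCODE 29, the deposited length equalled the GENCODE exon union, and among the members it differed most for PMAIP1 (2186 against 2235 bases), so GENCODE 29 was not the annotation used. Library totals were 17961765 to 26346187.

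Groups follow the deposited labels. Analysis used edgeR 4.0.16 and limma 3.58.1 under R 4.3.3. TMM factors were used, genes were filtered by group (19108 kept), and a quasi-likelihood model of 6 groups was fitted to 12 libraries with 6 residual degrees of freedom. There were 12 contrasts, each adjusted by Benjamini-Hochberg over all tested genes and called at 0.05. CPM are TMM-scaled, and SDs are of 2 libraries. Standard errors are the size of the log2 fold change over the root of the F statistic. Replicates differed by more than sampling noise in every group. The 8 members were all described, and genes of the other lists were named when called in all 4 comparisons with T0 or between the drugs in both lines, except where a count of 5 or fewer was spelled out after the values were seen. For each member, the 3 other genes of at least 10 CPM with the highest Pearson correlation were named. Members and lists were chosen with earlier results of these data known. The fit was tested on simulated data. Alternatives were RLE, upper quartile and library-total scaling, DESeq2 1.42.0, 2 other filters (at least 1 count in all, or at least 10 counts in every library), a threshold of 0.01, one fit per line, the replicate number as a block, and leaving out each library. Protein sequences were not used here, and a gene that the naming rule selected is not reported here.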

Additional observations from a re-analysis of the deposited data

Results flagged for a closer look

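For several BH3-only genes the change from T0 with drug differed between the lines. The test took the H1650 change less the PC9 change (quasi-likelihood test of edgeR, Benjamini-Hochberg adjustment, 2 libraries per group). Each change holds both the drug and 36 h in culture, which cannot be told apart. Of all tested genes, 40.8% were called in this test with erlotinib and 41.9% with osimertinib. With erlotinib the difference on the log2 scale was -4.63 for BMF, -3.12 for HRK, -1.10 for BBC3, -1.08 for BCL2L11, -0.48 for PMAIP1 and 0.68 for BID. With osimertinib it was -4.23 for BMF, -3.36 for HRK, -0.97 for BCL2L11, -0.85 for BBC3 and 0.84 for BID. The differences for HRK rest on 8 reads and 1 read in PC9 at T0. The change from erlotinib to osimertinib also differed between the lines for BMF, by 0.40, and leaving out any 1 of 6 libraries ended that call. No group is large enough to test a single library as an outlier.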

How the results depend on the processing

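The number of members called stayed within 1.5 times its value under every alternative in the 4 comparisons with T0, in both drug-by-line comparisons and between the lines at T0 and under erlotinib. Between the lines under osimertinib, keeping genes with 10 or more counts in each library called 3 of the 6 members it kept in place of 5 of 8, since it removed BIK and HRK. Between the drugs in H1650, 2 members were called without the filter on low counts and 2 with one fit per line, in place of 1, and 0 at a threshold of 0.01. At 0.01, 0 members were called for the line dependence of the drug-to-drug difference. Leaving out 1 library at a time gave 0 to 1 members between the drugs in PC9, 0 to 2 in H1650 and 0 to 1 for the line dependence. A further 26 values that were called under no setting are left aside here, and 36 of their 524 recomputations changed sign. Of the 1420 recomputations of the other single values, 7 changed sign, each of a value that was not called. BAD with erlotinib in H1650 was 0.0736 with library totals, and BCL2L11 between the drugs in PC9 was -0.0215. Leaving out 1 library gave -0.27 to 0.0692 for BAD with erlotinib in PC9, -0.25 to 0.14 for BAD with erlotinib in H1650, -0.50 to 0.0741 for BIK with osimertinib in H1650 and -0.0158 to 0.0713 for BCL2L11 between the drugs in PC9. The cause of these shifts was not tested.

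The labels give the groups the same replicate numbers without saying that a number marks a shared batch. Correlations of the replicate deviations between groups ran from -0.07 to 0.09 over 15 pairs of groups, and the samples were treated as sharing only a number. BAD and BBC3, however, were higher in replicate 1 than in replicate 2 in every group, and no other member kept one order. Over all genes, the block gave 2670 calls between the drugs in H1650 in place of 1672, and 1722 in place of 995 for the line dependence. Whether a number marks a shared batch was not tested. With the replicate number as a block, 1 member was called between the drugs in PC9 (BBC3) in place of 0, and 2 in H1650 in place of 1 (HRK was added). The block also gave calls for BCL2L11 between the lines under erlotinib, BMF between the lines under osimertinib, and, in H1650 against T0, BID with erlotinib and BAD with osimertinib. With 2 libraries per group, small changes such as those of BAD, and those of BIK in H1650 at 8 to 21 reads, were not resolved.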

Other observations

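Genes whose log2 CPM followed a member most closely over the 12 libraries (Pearson r, among 10288 other genes of at least 10 CPM) are given as a description. The libraries fall into 6 groups that the points of each correlation share. For BMF these were TP53INP1, TMPRSS13 and DAB2 (r from 0.989 to 0.993). For BCL2L11 they were TPD52L1 (0.992), CCNG2 (0.991) and SOS2, which the table writes with a space (0.989). BBC3 was followed by PCED1A (0.988), ZBTB22 and TSTD1 (0.981), and PMAIP1 by NCOA2 (0.982), HERPUD1 and CCR3 (0.981). BIK was followed by LCP1 (0.992), SOX15 and RAMP1 (0.989), HRK by ALDH3B2 (0.987), EPB41L4A and CLMN (0.985), and BID by LAP3 (0.984), ENG and RBM38 (0.982). BAD, which was not called in any comparison, had lower values, with TMEM141 (0.867), C1orf122 and TRIR (0.786).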
